A study of Mus musculus with 5 samples.

Results

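The 35 genes described here encode the proteins of blood clotting and of clot breakdown, and were taken by gene symbol from a list drawn up with earlier results of these data known. All 35 had a row among the 36401 genes counted in each library, and all 35 passed the low-count filter that left 13959 genes for testing. Liver RNA (lobe 1) of BALB/C mice was sequenced on day 10 of life, with 3 Mdr2+/- (heterozygous) and 2 Mdr2+/+ (wild-type) libraries. The mice came from an Mdr2-/- line backcrossed into BALB/c, and pups of both genotypes were littermates. The gene Mdr2 is listed under its present symbol Abcb4, and its product moves phosphatidylcholine across the canalicular membrane of hepatocytes into bile. Whether the libraries come from separate animals is not stated in the labels. The p-values therefore reflect only how far these samples differ from each other, which may be technical.

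Most clotting proteins are made by hepatocytes and secreted into plasma as inactive precursors. In the cascade, tissue factor or the contact system activates a chain of serine proteases that ends in thrombin, thrombin turns fibrinogen into fibrin, and factor XIII cross-links the fibrin. Anticoagulants hold the chain back, and plasmin later dissolves the clot. Several of the proteases need vitamin K for the carboxylation of glutamate residues, and the newborn liver is known for low output of these factors.

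Levels are normalised CPM (estimated counts scaled to library depth, with TMM factors between libraries) unless TPM is named, and the log2 fold change (log2FC) is Mdr2+/- minus Mdr2+/+. Adjusted p-values come from the quasi-likelihood test of edgeR over all 13959 genes, and a gene was called at an adjusted p under 0.05. Total estimated counts were 12991301 to 17312851 in Mdr2+/- and 11944157 to 14644529 in Mdr2+/+ libraries. Abcb4 had 101, 97.7 and 92.6 CPM in Mdr2+/- livers, against 162.1 CPM in both Mdr2+/+ livers (log2FC -0.74, SE 0.06, adjusted p = 3.4e-04). Of 12 hepatocyte markers such as Alb, 1 rose and 2 fell with a median log2FC of 0.03, none was at 0, and their summed level was 227271 to 245819 CPM in Mdr2+/- and 217780 to 234658 CPM in Mdr2+/+. Erythroid markers fell in 7 of 9 tested cases (summed level 2661 to 3112 CPM in Mdr2+/-, 4578 to 5462 CPM in Mdr2+/+), and neutrophil and monocyte markers rose in 10 of 12 (363 to 466 CPM in Mdr2+/-, 114 to 166 CPM in Mdr2+/+). The part of this shift in blood cells in the results below was not tested. In bulk tissue, fewer cells of a type and less RNA per cell cannot be told apart.

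The clotting genes lay slightly higher in Mdr2+/- livers, by amounts that mostly did not pass the test. Klkb1, Pros1, Cpb2, F2 and F13b rose, by 16.2 to 42.6%, and 0 of the 35 fell in this fit. Kng1 was called lower in 4 of the 13 alternative fits: edgeR with no low-count filter and with library size alone, DESeq2, and robust limma. The 5 higher calls are 14.3% of the members, where 6.63% of all tested genes were called higher and 5.41% lower. Fold changes were above 0 for 28 members and below 0 for 7, and the median log2FC was 0.18, against -0.00 over all tested genes. At an unadjusted p under 0.05, 17 members were higher and 1 lower, where the shares over all genes were 14.8% and 13.4%. Each of the 3 Mdr2+/- libraries lay above both Mdr2+/+ libraries for 21 members (background 22.9%) and below both for 4 (background 22.7%). With scaling by library size alone these counts were 18 above (background 18.7%) and 5 below (background 26.8%), and the median of the members was 0.14. The number called higher ran from 1 (without Mdr2+/- replicate 2) to 10 (with no low-count filter), and was 2 or 3 when any other library was left out. Without Mdr2+/+ replicate 1 the 2 were Klkb1 and Plaur, so that 1 of the 5 genes named above was still called.

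**Figure D1:**
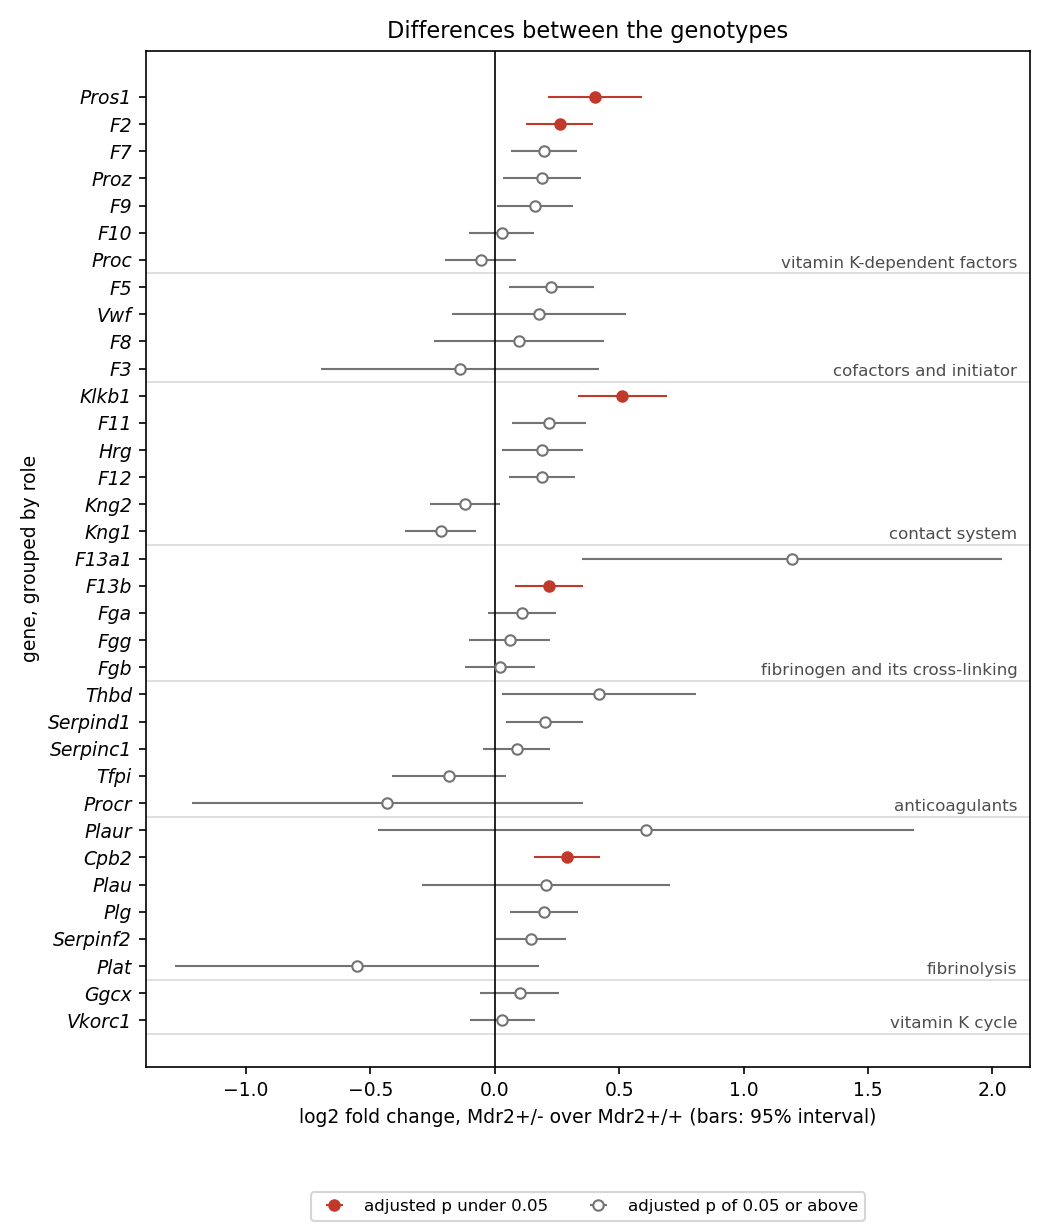
Log2 fold change of Mdr2+/- over Mdr2+/+ (x axis) for each of the 35 genes (rows, grouped by role), with 95% intervals from the edgeR fit; filled red points passed an adjusted p of 0.05. Klkb1 (0.51), Pros1 (0.40), Cpb2 (0.29), F2 (0.26) and F13b (0.22) passed, and most other points lie to the right of 0 with intervals that are wide for the genes of low level.

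Promoters of the members and of all other genes with one were searched on both strands for letters bound by liver factors. These were HNF1 (half-site GTTAAT), HNF4 (CAAAGTC), FOXA (TGTTTAC) and C/EBP (TTGCNNAA). The search covered the 250 bases before the RefSeq start (GRCm38.p6). The motif letters were chosen with the fold changes known. Of the 35 members 28 had a promoter in the table used. The C/EBP letters were in 10 of the 28 (35.7%) and in 9.56% of all 32851 promoters. These were F9, F11, Fga, Fgb, Ggcx, Hrg, Klkb1, Kng2, Plaur and Procr, of which Klkb1 alone was called. Plaur and Procr are sorted below among the vessel and blood cell genes. Members were counted per gene and the background per promoter, and the difference between the shares was not tested. The HNF1 half-site was in 4 (14.3%, 6.43% of all), FOXA in 3 (10.7%, 3.17% of all) and HNF4 in 1 (3.57%, 3.84% of all). The HNF4 match was in Tfpi, sorted below as a vessel gene. The upstream windows of Klkb1, F13b and Pros1 are shown because they differ in what they hold, with motif matches in capitals. Klkb1 (chr8:45294836-45295085, minus strand, inside the wider GENCODE gene) has a C/EBP match and a FOXA match, and F13b (chr1:139501457-139501706, plus strand) has an HNF1 match. Each marked stretch is the reverse complement of the letters given, so these matches are on the opposite strand. Pros1 (chr16:62854057-62854306, plus strand) has none and a GC content of 64.4%, against 42.4% for Klkb1 and 30.8% for F13b.
Klkb1: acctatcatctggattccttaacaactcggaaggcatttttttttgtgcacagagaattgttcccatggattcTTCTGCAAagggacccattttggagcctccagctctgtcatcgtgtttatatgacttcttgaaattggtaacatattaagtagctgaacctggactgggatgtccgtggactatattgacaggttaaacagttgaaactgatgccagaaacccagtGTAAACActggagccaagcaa
F13b: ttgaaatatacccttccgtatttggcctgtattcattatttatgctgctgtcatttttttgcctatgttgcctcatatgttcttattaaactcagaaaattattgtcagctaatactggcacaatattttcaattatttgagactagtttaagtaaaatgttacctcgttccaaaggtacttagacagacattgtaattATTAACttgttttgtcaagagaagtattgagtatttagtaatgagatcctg
Pros1: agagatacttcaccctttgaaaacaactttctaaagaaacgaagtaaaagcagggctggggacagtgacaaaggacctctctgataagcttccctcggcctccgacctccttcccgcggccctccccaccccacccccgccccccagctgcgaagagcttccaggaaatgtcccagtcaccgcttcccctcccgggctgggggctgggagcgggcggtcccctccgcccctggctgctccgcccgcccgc
F2 and Cpb2 had no match of these letters. A match is a description of the sequence and not a site of binding.

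The members were sorted by textbook knowledge of their source, after the values were seen, into 23 genes made mainly by hepatocytes, 10 made mainly by vessel, stromal or blood cells, and the pair of vitamin K enzymes. Together the 35 genes took 3.24, 3.27 and 3.23% of all counts in Mdr2+/- livers, against 3.12 and 3.14% in Mdr2+/+ livers. The groups did not overlap, and the exact two-sided permutation p over samples was 0.20. That is the smallest value that 3 against 2 libraries allow, so the test cannot decide whether the share differs. The hepatocyte-made genes held nearly all of that share, at 3.22 ± 0.0234% in Mdr2+/- (SD, n = 3) and 3.11 ± 0.0152% in Mdr2+/+ (SD, n = 2). Their exact permutation p was also 0.20. The vessel and blood cell genes held 0.00505 ± 0.000406% in Mdr2+/- and 0.00489 ± 0.000354% in Mdr2+/+ (exact permutation p = 0.80). These p-values do not compare the origins with each other.

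Levels per transcript length (TPM) ranged widely, with the hepatocyte-made genes at the top. Fgg, the gamma chain of fibrinogen, was the most abundant member with 4340 ± 158 TPM in Mdr2+/- and 4091 ± 285 TPM in Mdr2+/+ (SD, n = 3 and 2, as for all levels). It was followed by Fga (fibrinogen alpha chain), Kng1 (kininogen), Plg (plasminogen), F2 (prothrombin) and Fgb (fibrinogen beta chain), which had 2052 ± 52.9 TPM in Mdr2+/- and 1988 ± 67.1 TPM in Mdr2+/+. At the low end of the hepatocyte-made genes stood Pros1 (protein S), with 22.7 ± 1.82 TPM in Mdr2+/- and 16.8 ± 0.311 TPM in Mdr2+/+. The first vessel gene in this order was Tfpi, the inhibitor of the tissue factor pathway, at 12.5 ± 0.894 TPM in Mdr2+/- and 13.99 ± 0.181 TPM in Mdr2+/+. The last was Plat, tissue plasminogen activator, at 0.556 ± 0.114 TPM in Mdr2+/- and 0.831 ± 0.162 TPM in Mdr2+/+. The rank of a gene depends on the annotated transcript length used, which for Fgb (3810 bases) and Serpinc1 (4970 bases) is long.

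**Figure D2:**
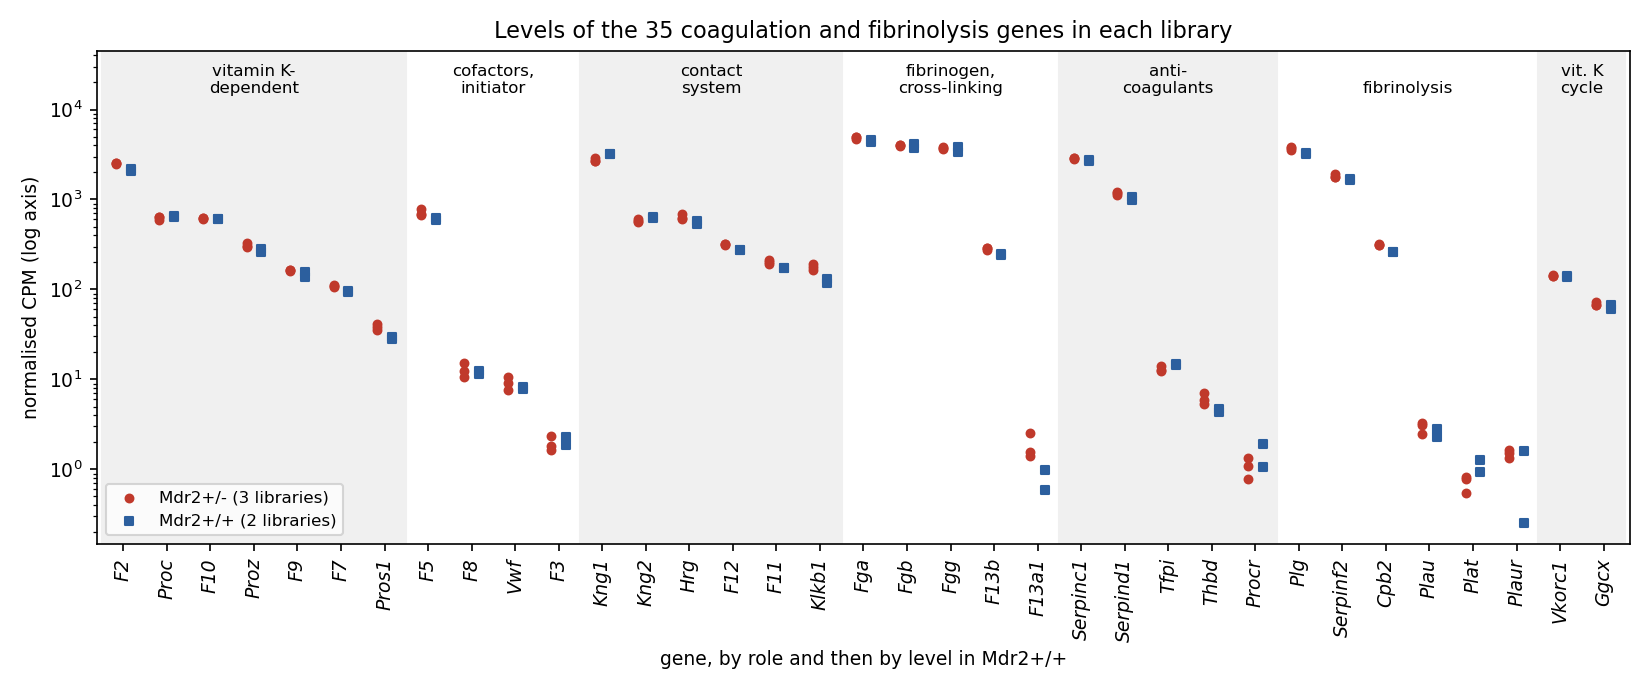
Normalised CPM (log axis) of the 35 genes in each of the 3 Mdr2+/- libraries (red circles) and 2 Mdr2+/+ libraries (blue squares), by role and, within a role, by level. The hepatocyte-made genes lie above 28 CPM in every library, and the vessel and blood cell genes lie below 16 CPM.

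Among the vitamin K-dependent factors, F2 and Pros1 rose and the other 5 of 7 did not pass. F2, the precursor of thrombin, had 2574, 2568 and 2485 CPM in Mdr2+/- livers, against 2077 and 2168 CPM in Mdr2+/+ livers (log2FC 0.26, SE 0.06, adjusted p = 0.0231). The groups were separated by more than the range within either genotype. Pros1, the cofactor of activated protein C, had 41.2, 38.4 and 35.2 CPM in Mdr2+/-, against 28.1 and 29.8 CPM in Mdr2+/+ (log2FC 0.40, SE 0.08, adjusted p = 0.0162), again with no overlap. Protein S is also made by endothelial and other cells, so its transcript is not a measure of hepatocytes alone. The call of F2 was lost without Mdr2+/- replicate 1, 2 or 3 or Mdr2+/+ replicate 1 (adjusted p = 0.0636 to 0.0930), and that of Pros1 without Mdr2+/- replicate 2 (0.0540) or Mdr2+/+ replicate 1 (0.106).

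F7, the protease that binds tissue factor, had 110.0, 107 and 112 CPM in Mdr2+/-, against 94.9 and 96.2 CPM in Mdr2+/+ (log2FC 0.20, adjusted p = 0.0598). It passed with robust limma (0.0484) and with an offset for transcript length (0.0206). F9, the factor missing in haemophilia B, and Proz, protein Z, which brings a serpin to factor Xa, also had all Mdr2+/- libraries above both Mdr2+/+ libraries (log2FC 0.16 and 0.19) without passing. F10, the protease that cleaves prothrombin, differed little: 610.0, 623 and 615 CPM in Mdr2+/- and 603 and 605 CPM in Mdr2+/+ (log2FC 0.03, 95% interval -0.10 to 0.16). Its groups still did not overlap, so it counts among the 21 members above. With scaling by library size alone the log2FC of F10 was -0.0089, so its direction depends on the scaling. Proc, protein C, had 646, 598 and 634 CPM in Mdr2+/- and 661 and 640.4 CPM in Mdr2+/+, with overlapping groups (log2FC -0.06, 95% interval -0.20 to 0.09). Both intervals include 0, which does not show that the levels were equal.

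The enzymes that supply the vitamin K-dependent modification had small differences that did not pass. Vkorc1, which recycles vitamin K and is the target of warfarin, had 142, 144 and 142 CPM in Mdr2+/- and 138 and 141 CPM in Mdr2+/+ (log2FC 0.03, 95% interval -0.10 to 0.16). Despite this small difference its groups did not overlap, so Vkorc1 also counts among the 21. With scaling by library size alone the log2FC of Vkorc1 was -0.0073, so its direction depends on the scaling. Ggcx, the gamma-glutamyl carboxylase, had 72.1, 67.3 and 67.3 CPM in Mdr2+/- and 67.6 and 60.7 CPM in Mdr2+/+ (log2FC 0.10, adjusted p = 0.400), and its groups overlapped. Most of the annotated exon sequence of Vkorc1 (80.3%) is shared with Prss53 on the same strand, whose mean count was 6.60, against 2080 for Vkorc1.

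The contact system showed differences in both directions. Klkb1, plasma prekallikrein, which activates factor XII and releases bradykinin from kininogen, had 190.1, 179 and 163 CPM in Mdr2+/- livers, against 119 and 130.0 CPM in Mdr2+/+ livers. Its log2FC of 0.51 (SE 0.08, adjusted p = 0.00449) was the largest among the called members, and it was called in all 13 alternative fits (log2FC 0.45 to 0.58, adjusted p 4.1e-06 to 0.0435). Klkb1 overlaps Cyp4v3 on the same strand over 313 exon bases (11.4% of its exons), so some reads could belong to either gene. Cyp4v3 had 113 ± 4.596 CPM in Mdr2+/- and 95.01 ± 10.1 CPM in Mdr2+/+ (log2FC 0.25, adjusted p = 0.0684).

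Kng1, the substrate of kallikrein, lay the other way, with 2894, 2667 and 2694 CPM in Mdr2+/- livers, against 3228 and 3171 CPM in Mdr2+/+ livers (log2FC -0.22, SE 0.06, adjusted p = 0.0533). It just missed the threshold here, and passed as lower with no filter (0.00814), with scaling by library size alone (0.0211), with DESeq2 (0.0247) and with robust limma (0.0417). Kng2, its paralogue, had 606, 573 and 563 CPM in Mdr2+/-, against 627 and 635 CPM in Mdr2+/+ (log2FC -0.12, adjusted p = 0.244). All Mdr2+/- libraries were below both Mdr2+/+ libraries for both kininogens. How reads that match either paralogue were counted is not stated, so the split between them is uncertain. The TPM ratio of Klkb1 to Kng1 was 0.0436, 0.0447 and 0.0402 in Mdr2+/- and 0.0245 and 0.0272 in Mdr2+/+. This ratio restates the higher Klkb1 and lower Kng1 values and is not a separate result.

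The remaining genes grouped here with the contact system, Hrg among them, had higher values that did not pass. F11, the zymogen that activates factor IX, had 212, 191 and 200 CPM in Mdr2+/- and 172 and 174 CPM in Mdr2+/+ (log2FC 0.22, adjusted p = 0.0653). F12, Hageman factor, had 318, 320 and 309 CPM in Mdr2+/- and 276 and 277 CPM in Mdr2+/+ (log2FC 0.19, adjusted p = 0.0699), and Hrg, a plasma protein that binds heparin and plasminogen, had a log2FC of 0.19 (adjusted p = 0.1199). In these 3 genes the groups did not overlap. F11 passed with no filter (0.0448), robust limma (0.0458) and the length offset (0.0347), and F12 with the length offset (0.0289).

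Fibrinogen, the largest contributor to the counts, had small differences that did not pass for any of its chains. Fga had 4704, 4921 and 4892 CPM in Mdr2+/- and 4389 and 4583 CPM in Mdr2+/+ (log2FC 0.11, 95% interval -0.03 to 0.24), with no overlap. Fgb had 3901, 4069 and 4019 CPM in Mdr2+/- and 3779 and 4097 CPM in Mdr2+/+ (log2FC 0.02, 95% interval -0.12 to 0.16). Fgg had 3632, 3870.4 and 3777 CPM in Mdr2+/- and 3370.4 and 3844 CPM in Mdr2+/+ (log2FC 0.06, 95% interval -0.10 to 0.22). All 3 intervals include 0, which does not show equal levels, and those of Fga and Fgg also include the members' median of 0.18. The groups overlapped for Fgb and Fgg, and Mdr2+/+ replicate 1 had the lowest value of all 3 chains. Fibrinogen is also an acute phase protein; of 10 tested acute phase genes, 3 rose and 1 fell (median log2FC 0.23).

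**Figure D3:**
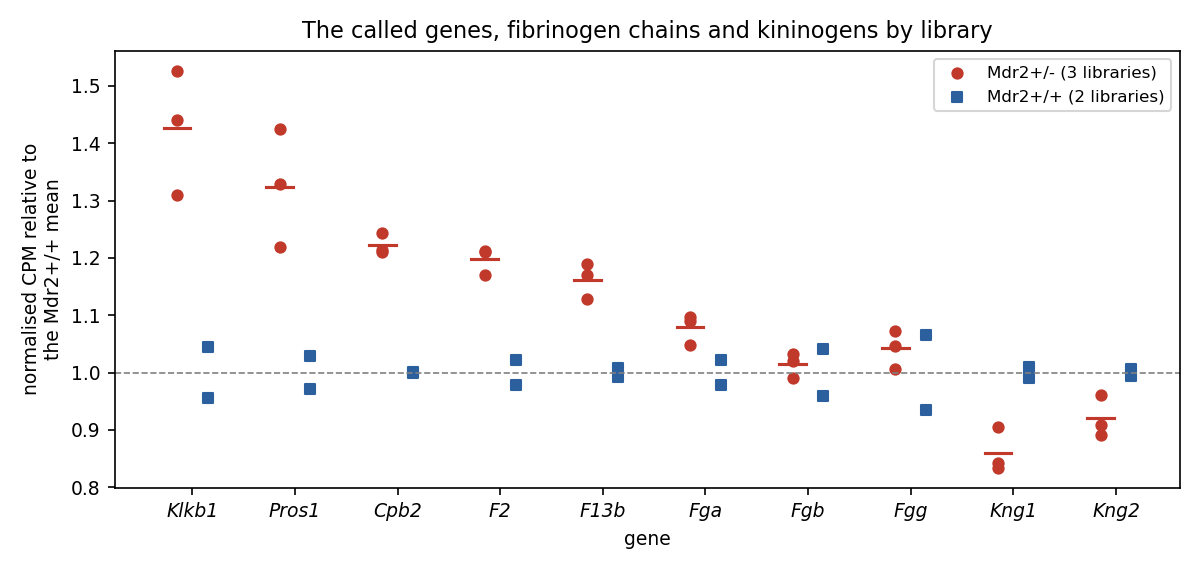
Normalised CPM of each library divided by the Mdr2+/+ mean (y axis) for the 5 called genes, the 3 fibrinogen chains and the kininogens; red circles are the 3 Mdr2+/- libraries with their mean as a bar, blue squares the 2 Mdr2+/+ libraries, and the dashed line is 1. The circles lie above the squares for the called genes and Fga, among them for Fgb and Fgg, and below them for Kng1 and Kng2.

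Factor XIII, which cross-links fibrin, has its subunits made in different cells. F13b, the carrier subunit made by hepatocytes, had 292, 287 and 277 CPM in Mdr2+/- livers, against 244 and 248 CPM in Mdr2+/+ livers (log2FC 0.22, SE 0.06, adjusted p = 0.0494). This call lay at the threshold and was lost when any single library was left out (adjusted p = 0.0811 to 0.169), with RLE scaling (0.0514) and by library size alone (0.0770). F13a1, the catalytic subunit made by megakaryocytes and macrophages, had 1.41, 2.55 and 1.57 CPM in Mdr2+/-, against 0.991 and 0.589 CPM in Mdr2+/+ (log2FC 1.19, SE 0.38, adjusted p = 0.0699). It rests on 18, 42 and 27 counts in Mdr2+/- and 15 and 7 in Mdr2+/+, and passed with no filter (0.0163) and with robust limma (0.0438). Of 12 platelet markers 1 rose and 0 fell (summed level 83.5 to 105 CPM in Mdr2+/-, 54.7 to 81.4 CPM in Mdr2+/+). Of 12 macrophage markers 0 rose with edgeR (1 at an unadjusted p under 0.05) and 3 fell (499 to 579 CPM in Mdr2+/-, 483 to 704 CPM in Mdr2+/+). Of 12 neutrophil and monocyte markers 10 rose and 0 fell (363 to 466 CPM in Mdr2+/-, 114 to 166 CPM in Mdr2+/+). No marker of these lists was at 0, and the part of these cells in the value of F13a1 was not tested.

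Of the cofactors and the initiator, 0 of 4 passed with DESeq2 or in the reported edgeR fit, where 1 had an unadjusted p under 0.05. F5, the cofactor of factor Xa and the member of this role made by hepatocytes, had 774, 696 and 666 CPM in Mdr2+/-, against 597 and 620.3 CPM in Mdr2+/+ (log2FC 0.23, adjusted p = 0.0835). It passed with no filter (0.0220). F8, the cofactor of factor IXa, which sinusoidal endothelium makes, had 12.5, 15.2 and 10.6 CPM in Mdr2+/- and 12.5 and 11.4 CPM in Mdr2+/+ (log2FC 0.10). Vwf, the endothelial and platelet protein that carries factor VIII, had 7.53, 10.7 and 9.07 CPM in Mdr2+/- and 8.26 and 7.91 CPM in Mdr2+/+ (log2FC 0.18). F3, tissue factor, the starter of the cascade, had 22 to 35 counts per library and a log2FC of -0.14 (SE 0.25). The groups overlapped for these 3 genes.

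Endothelial markers were read beside the vessel genes. Of 12, 0 rose with edgeR (1, Lyve1, at an unadjusted p under 0.05) and 2 fell (Oit3 and Clec4g, both of sinusoidal endothelium). Other sinusoidal genes of the list went both ways without a call: Lyve1 (log2FC 0.49) and Stab2 (0.13) were higher, Stab1 (-0.19) lower. The 12 markers had a summed level of 436 to 467 CPM in Mdr2+/- and 451 to 461 CPM in Mdr2+/+, and none was at 0. Their part in the values of F8, Vwf, Thbd, Procr and Tfpi was not tested.

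Among the anticoagulants 0 of 5 passed in the reported edgeR fit, where 2 had an unadjusted p under 0.05. DESeq2 called 0 of the 4 for which it gave an adjusted p, all but Procr. Serpinc1, antithrombin, had 2795, 2892 and 2916 CPM in Mdr2+/- and 2664 and 2734 CPM in Mdr2+/+ (log2FC 0.09, 95% interval -0.05 to 0.22). Serpind1, heparin cofactor II, had 1223, 1185 and 1111 CPM in Mdr2+/- and 986 and 1057 CPM in Mdr2+/+ (log2FC 0.20, adjusted p = 0.0897) and passed with no filter (0.0272). Neither overlapped between the genotypes. Of the genes of the vessel wall, Thbd (thrombomodulin, which turns thrombin towards protein C) had 5.89, 6.98 and 5.35 CPM in Mdr2+/- and 4.69 and 4.37 CPM in Mdr2+/+ (log2FC 0.42, adjusted p = 0.149). Tfpi had 14.05, 12.6 and 12.3 CPM in Mdr2+/- and 14.6 and 14.8 CPM in Mdr2+/+ (log2FC -0.18, adjusted p = 0.277), and Procr, the endothelial receptor of protein C, had 13 to 23 counts per library and overlapping groups.

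In the fibrinolytic system the gene of an inhibitor rose. Cpb2 encodes a carboxypeptidase (TAFI) that removes lysines from fibrin and so slows plasmin. It had 312, 321 and 314 CPM in Mdr2+/- livers, against 258.1 and 258.2 CPM in Mdr2+/+ livers (log2FC 0.29, SE 0.06, adjusted p = 0.0151), a gap far wider than the range within either genotype. The call was lost without Mdr2+/- replicate 2 (0.0618), Mdr2+/+ replicate 1 (0.0665) or Mdr2+/+ replicate 2 (0.0558). Plg, the precursor of plasmin, had 3817, 3741 and 3586 CPM in Mdr2+/- and 3174 and 3302 CPM in Mdr2+/+ (log2FC 0.20, adjusted p = 0.0674), and passed with no filter (0.00711) and with DESeq2 (0.0408). Serpinf2, the plasmin inhibitor alpha-2-antiplasmin, had 1917, 1792 and 1795 CPM in Mdr2+/- and 1630 and 1687 CPM in Mdr2+/+ (log2FC 0.15, adjusted p = 0.165). Neither overlapped between the genotypes.

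The plasminogen activators and their receptor were near the lower limit of the data. Plat had 7 to 14 counts per library in Mdr2+/- and 14 to 15 in Mdr2+/+, and Plau, urokinase, had 40 to 57 counts in Mdr2+/- and 27 to 43 in Mdr2+/+. Plaur, the urokinase receptor, had 17, 27 and 26 counts in Mdr2+/-, against 24 and 3 in Mdr2+/+. Its log2FC was 0.61 with all libraries and 2.53 without Mdr2+/+ replicate 1, where it passed (adjusted p = 0.0381), so its value rests on the 3 counts of Mdr2+/+ replicate 2. A count of 3 corresponds to 0.173 to 0.251 CPM per library, and limits of this kind cover counting error only.

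By origin, the 5 calls were all among the 23 hepatocyte-made genes (21.7%, where 6.63% of all tested genes were called higher). Pros1 is counted among these genes although other cells also make it, and the sorting was done after the values were seen. Of these 23, 20 had a log2FC above 0, with a median of 0.19, and 18 had all Mdr2+/- libraries above both Mdr2+/+ libraries (78.3%, background 22.9%), while Kng1 and Kng2 were below. By library size alone 16 were above (background 18.7%) and 3 below. Of the 10 vessel and blood cell genes 0 were called in the reported edgeR fit, where 2 had an unadjusted p under 0.05, and 2 were above and 2 below. F13a1 was called with no filter and with robust limma, and Plaur without Mdr2+/+ replicate 1. DESeq2 called 0 of the 7 for which it gave an adjusted p, which leaves out Procr, Plat and Plaur. The difference between these origins was not tested, and the counts behind the vessel and blood cell genes are small. The hepatocyte markers, which are also mostly secreted proteins, had all Mdr2+/- libraries above in 5 of 12 cases and below in 5. Of 7 tested fetal liver genes 2 rose and 2 fell (median log2FC 0.26). Igf2 (log2FC 0.36) and Igf2bp3 (0.35) rose, while Gpc3 (-0.43) and Afp (-1.63), a marker of fetal hepatocytes, fell.

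Several members are neighbours on a chromosome, in mm10. Fgg, Fga and Fgb lie together on chromosome 3, at 83007724 to 83015049, 83026076 to 83033627 and 83040141 to 83049863. F7, F10 and Proz lie in a row on chromosome 8 with gaps of 1.499 and 4.24 kb, and the gene in the middle had a log2FC of 0.03 while its neighbours had 0.20 and 0.19. F11 (45241174 to 45262031) and Klkb1 (45269671 to 45308466) are also adjacent on chromosome 8, on the minus strand, and come from a shared ancestor; their log2FC values were 0.22 and 0.51. Hrg, Kng2 and Kng1 are adjacent on chromosome 16 and had log2FC values of 0.19, -0.12 and -0.22. The differences between neighbours were not tested.

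Other genes of the pathway were described from a list of 34, of which 30 were tested, 5 rose and 1 fell (median log2FC 0.07). The 5 are 16.7% of those tested, where 6.63% of all tested genes were called higher and 5.41% lower. A2m, alpha-2-macroglobulin, a plasma protein that traps many proteases, plasmin and thrombin among them, had 189 ± 35.6 CPM in Mdr2+/- and 18.5 ± 5.18 CPM in Mdr2+/+ (log2FC 3.34, adjusted p = 4.3e-05). Its relative Pzp had 6916 ± 583 CPM in Mdr2+/- and 5410 ± 193 CPM in Mdr2+/+ (log2FC 0.35, adjusted p = 0.0199). Lrp1, a hepatic receptor that clears factor VIII and inhibitor complexes, rose (625 ± 30.2 CPM in Mdr2+/-, 429 ± 25.1 CPM in Mdr2+/+, log2FC 0.54), as did Thbs1, a platelet and matrix protein (log2FC 0.57), and Hpn, a hepatocyte serine protease that can activate factor VII (log2FC 0.26). Fgl1, a fibrinogen-like protein secreted by hepatocytes, fell, with 273 ± 24.5 CPM in Mdr2+/- and 404 ± 4.45 CPM in Mdr2+/+ (log2FC -0.57, adjusted p = 0.00298). Lman1 and Mcfd2, which carry factors V and VIII out of the endoplasmic reticulum, had log2FC values of -0.03 and -0.02. At an unadjusted p under 0.05, 7 of the 30 were higher and 4 lower (shares over all genes 14.8% and 13.4%). Those without a call were Gas6 (log2FC 0.35) and Habp2 (0.18), higher, and Plgrkt (-0.54), S100a10 (-0.30) and Anxa2 (-0.29), lower. Calls of Pzp and Hpn were lost when single libraries were left out: Pzp without Mdr2+/- replicate 1 or 2 or Mdr2+/+ replicate 1 (adjusted p = 0.0601 to 0.0854), and Hpn without any library (0.0652 to 0.140). Thbs1 was lost without Mdr2+/+ replicate 2 (0.0614).

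**Figure D4:**
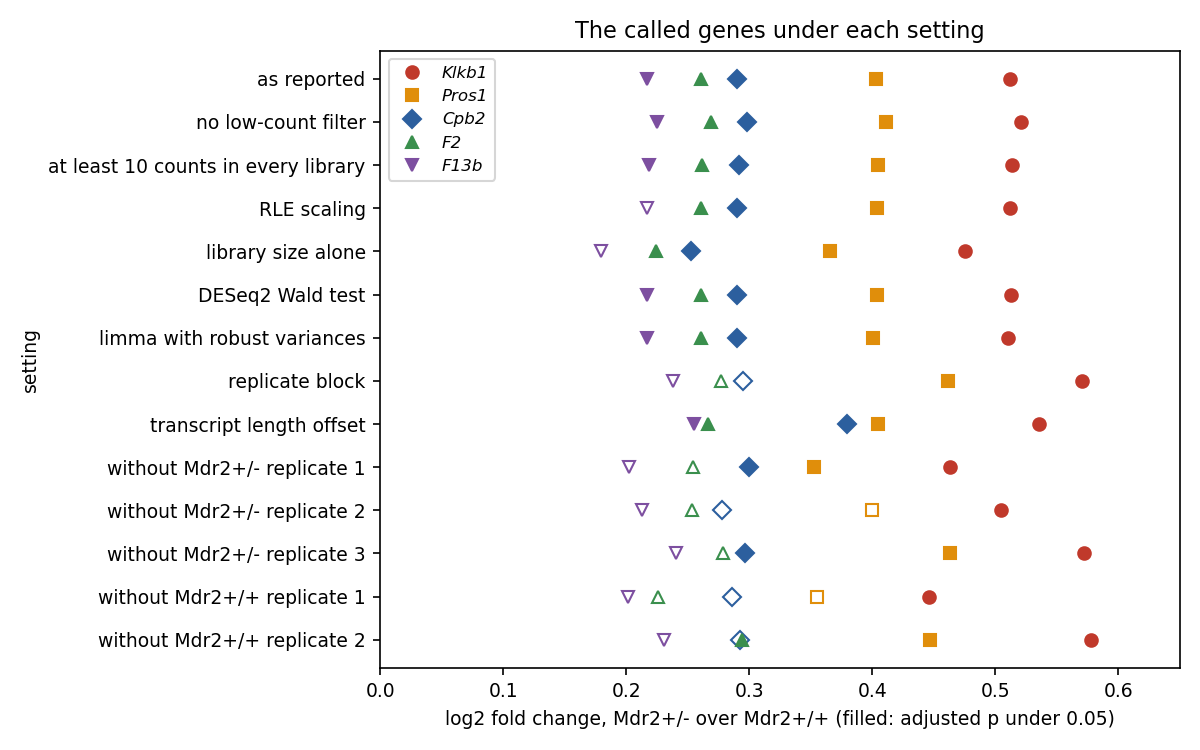
Log2 fold change of Mdr2+/- over Mdr2+/+ (x axis) of the 5 called genes under the reported fit and 13 alternatives (rows); filled symbols passed an adjusted p of 0.05 in that fit. All symbols lie to the right of 0, and Klkb1 is filled in every row.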

How the data were processed

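RNA of snap-frozen liver lobe 1 was made into libraries with the Illumina TruSeq RNA kit and sequenced on a HiSeq (source: the labels' protocols). TopHat and the build mm10 are named in the submitters' processing notes; how reads were counted, with which annotation and strand setting, is not stated there or in the labels. The deposited values are estimated counts for Ensembl genes, with no scaling to depth or length, of which 33.9 to 37.3% of the values above 0 were whole numbers (tolerance 1e-06). They were rounded, filtered with filterByExpr (minimum count 10; 13959 genes kept), scaled by TMM and compared by genotype with the quasi-likelihood test of edgeR 4.0.16 in R 4.3.3, two-sided, and Benjamini-Hochberg adjustment across the 13959. DESeq2 1.42.0, limma 3.58.1 with robust variances, other filters and scalings, a replicate block, a transcript length offset and fits without each library were alternatives. The SE was derived from the log2FC and the F statistic. TPM used the APPRIS principal transcript of GENCODE M21 (mm10), or the longest where none is marked. All pairs of libraries differed beyond sampling noise (chi-square per degree of freedom 5.30 to 8.86 within a genotype). The procedure was also run on simulated counts. No result of that run is given here, so it says nothing about the calls reported. All 35 members, the called genes among the other pathway genes and a few of the rest were named; the members, lists and rules were chosen with earlier results of these data known. Sources of members and promoter motifs were set after the values were seen.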

Additional observations from a re-analysis of the deposited data

How the results depend on the processing

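F13a1, Plat and Plaur were not tested with at least 10 counts in every library, and DESeq2 gave no adjusted p for Procr, Plat and Plaur. The count of members called higher (5) was 10 with no low-count filter, 8 with robust limma, 8 with the transcript length offset, and 1 to 3 with a library left out. With the replicate block it was 2 (Klkb1 and Pros1), and over all genes 1277 in place of 1680 were called; adjusted p was then 0.0593 for F2, 0.0507 for Cpb2, 0.1000 for F13b and 0.0912 for Hpn, which were no longer called. The numbers do not pair the libraries by the labels, and across genes the difference between replicates 1 and 2 in Mdr2+/- correlated with that in Mdr2+/+ at r = 0.03. With any library left out 697 to 1174 genes were called. The count of members called lower (0) was 1, Kng1, with no filter, with library size alone, with DESeq2 and with robust limma, and 0 to 0 with a library left out. The median log2 fold change of the members (0.18) was 0.14 by library size alone, where the median of all genes was -0.04, and 0.15 to 0.18 with a library left out. By library size alone 704 genes were higher and 936 lower, against 925 and 755 with TMM. The cause of these shifts was not tested. No called member changed direction in any of the 13 alternatives. Depth limits F3, F13a1, Procr, Plat and Plaur, which have under 50 counts in each library.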
